A study of Mus musculus with 9 samples.

Results

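The extracellular matrix and collagen genes described here are a list of 39 genes for the proteins that cells secrete around themselves, and 37 of them were measured among the 19938 genes tested. A gene was taken from a probe set whose only annotated symbol was that gene, and each of the 37 had exactly 1 such probe set. Spp1, which encodes osteopontin, had no probe set with its name among those used here, and the only probe set of Loxl2 also carried another gene's name, so both are not analysed here. By their place in tissue, 11 of the measured genes were counted as basement membrane, 15 as interstitial matrix and 11 as other matrix genes that fit neither class or both.

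Expression was measured in 3 lines of mouse mammary carcinoma cells, with 3 arrays each. DR500 cells survived stepwise doxorubicin, an anthracycline, up to 500 ng/ml, and MR20 cells survived methotrexate, a folate antagonist, at 20 µg/ml by the labels. 4T1 is the parental line from a BALB/c mouse, a model of triple-negative breast cancer, and was cultured in parallel without drug. Both selected lines were returned to medium without drug before RNA was taken. The labels of DR500 name methotrexate in one field and doxorubicin in another, and the study's text names doxorubicin, which is used here. For the dose of MR20 that text writes ng/ml where the labels write µg/ml. Each drug is represented by 1 selected line, so a change is one of that line and not of the drug in general.

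The values are the authors' log2 expression values, in which a difference of 1 is a 2-fold change. The median of all probe sets lay between 6.24 and 6.38 on the 9 arrays, and arrays of the same line correlated at 0.995 to 0.999 across the genes tested, which are not independent replicates. Of the 37 genes, 23 lay above the median of the array on all 9 arrays and 8 lay below it on all 9, namely Col5a2, Efemp1, Dcn, Lum, Bgn, Vcan, Nid2 and Lox. A gene "passed" when its adjusted p was under 0.05 in limma over all 19938 genes. The labels of MR20 and 4T1 and a legend of the study call the arrays biological replicates, and its methods name triplicate wells, so p-values measure the spread between these arrays, which may be technical. Array batches are not given in the sources used here and the DR500 samples were labelled in another style than the rest, so a batch and the DR500 line cannot be told apart. The RNA of a whole culture was measured, and fewer cells of a type and less RNA per cell cannot be told apart.

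The extracellular matrix has distinct layers. The basement membrane is a thin sheet under epithelia, in which heterotrimers of laminin (an alpha, a beta and a gamma chain) and a network of collagen IV are joined by nidogens and the heparan sulfate proteoglycan perlecan. The interstitial matrix is the fibrous tissue between cell layers, built of fibrillar collagens, fibronectin and small proteoglycans, and in breast tumours it is made mostly by fibroblasts. Matricellular proteins such as tenascin, thrombospondins and periostin are less structural and act on how cells attach, and the lysyl oxidases cross-link collagen and elastin.

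The markers of cell types set the frame for the values below. Their counts are to be read beside the 20.2% of all genes that rose and 21.3% that fell in DR500 against 4T1. In MR20 against 4T1 these shares were 15.4% and 17.1%. Of 8 epithelial markers, 6 fell and 0 rose in DR500 compared to 4T1, with Krt7 lower by a log2 difference of -5.67, Epcam of -4.19, Cdh1 of -3.84, Krt14 of -2.58 and Krt19 of -2.37. The mean log2 level of the list was 8.41 to 8.47 on the DR500 arrays, 11.18 to 11.22 on the MR20 arrays and 10.74 to 10.83 on the 4T1 arrays. In MR20, 5 of the 8 rose and 0 fell, of which Krt14 passed 2-fold with 2.24. Of 11 fibroblast and mural markers, 4 rose and 0 fell in DR500, of which only Pdgfra passed 2-fold with 1.70, and the mean of the list was 6.03 to 6.17 on the DR500 arrays, 5.73 to 5.78 on the MR20 arrays and 5.64 to 5.81 on the 4T1 arrays. Of these 11 markers 6 lay below the array's median on all 9 arrays, as did 7 of 9 endothelial and 6 of 8 leukocyte markers. No endothelial marker passed in any comparison in limma, with 2 of 9 at an unadjusted p under 0.05 in DR500 against 4T1, 0 in MR20 against 4T1 and 2 in DR500 against MR20. Of 8 leukocyte markers, 2 rose and 6 did not pass in DR500 and likewise in MR20, Cd53 by 4.35 in DR500 and 0.95 in MR20, and Cd68 by 2.30 in DR500 and 1.23 in MR20. The part of these marker changes in the matrix genes was not tested.

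Promoter sequences are shown for 4 genes that carry the results, Lamb3, Fbln1 and Tnc with the largest changes of their role, and Col4a2, which shares its promoter region with Col4a1. They are RefSeq windows on GRCm38.p6, 300 bases each, which were matched by symbol for 25 of the 37 genes. In Col4a2, capitals mark the 78 bases that the windows of Col4a2 and Col4a1 share, since these genes start 21 bases apart on opposite strands. In Lamb3 capitals mark CACCTG, an E-box letter string, in Fbln1 GGGCGG, a GC-box string, and in Tnc TATAAA, each on either strand. For Lamb3 and Fbln1 the printed window was chosen because it holds the marked string. Lamb3, Fbln1 and Tnc each have a second window at another annotated start, which is not printed. That of Lamb3 holds 0 of the CACCTG strings and that of Fbln1 0 of the GGGCGG strings, and that of Tnc overlaps the printed one and holds TATAAA too.
Col4a2 (chr8:11312555-11312854, plus strand): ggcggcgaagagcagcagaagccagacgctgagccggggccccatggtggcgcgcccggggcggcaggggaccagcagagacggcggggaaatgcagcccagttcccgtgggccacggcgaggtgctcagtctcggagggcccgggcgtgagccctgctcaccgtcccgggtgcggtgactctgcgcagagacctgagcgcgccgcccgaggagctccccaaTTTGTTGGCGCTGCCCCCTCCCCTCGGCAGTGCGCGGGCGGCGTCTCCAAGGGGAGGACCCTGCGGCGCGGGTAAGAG
Lamb3 (chr1:193301993-193302292, plus strand): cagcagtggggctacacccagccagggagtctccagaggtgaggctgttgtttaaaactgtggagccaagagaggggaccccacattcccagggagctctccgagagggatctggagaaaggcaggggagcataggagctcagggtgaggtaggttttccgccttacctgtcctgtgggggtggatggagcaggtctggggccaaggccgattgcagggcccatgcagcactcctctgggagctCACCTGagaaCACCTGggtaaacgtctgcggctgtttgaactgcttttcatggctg
Fbln1 (chr15:85205758-85206057, plus strand): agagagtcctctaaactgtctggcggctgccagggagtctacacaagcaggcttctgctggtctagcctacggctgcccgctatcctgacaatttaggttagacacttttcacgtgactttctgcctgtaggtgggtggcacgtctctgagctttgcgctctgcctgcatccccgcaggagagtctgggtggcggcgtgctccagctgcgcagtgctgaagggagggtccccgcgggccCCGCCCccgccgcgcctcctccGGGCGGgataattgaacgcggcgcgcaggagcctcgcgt
Tnc (chr4:64046966-64047265, minus strand): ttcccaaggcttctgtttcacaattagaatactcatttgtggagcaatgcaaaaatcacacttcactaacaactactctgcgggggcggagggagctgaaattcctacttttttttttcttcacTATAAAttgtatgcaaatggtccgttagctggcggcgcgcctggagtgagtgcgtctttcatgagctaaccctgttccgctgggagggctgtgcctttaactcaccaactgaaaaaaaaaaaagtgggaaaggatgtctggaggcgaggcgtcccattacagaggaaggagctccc
Searched on both strands, CACCTG occurred in 12.5% of the 32 windows of these genes and in 20.2% of all 32851 windows, TATAAA in 15.6% and 13.6%, CCAAT in 37.5% and 37.4%, and TGANTCA in 6.25% and 7.81%. GGGCGG occurred in 65.6% of the windows of these genes, against 35.7% of all windows. A string that is present is a description of the window and not a binding site.

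More of these genes passed in DR500 than in MR20. In DR500 compared to 4T1, 18 of 37 rose, 6 fell and 13 did not pass, where 20.2% of all genes tested rose and 21.3% fell (41.5% together). In MR20 compared to 4T1, 9 rose, 2 fell and 26 did not pass, where 15.4% of all genes rose and 17.1% fell (32.5% together). Beyond 2-fold, 6 rose and 3 fell in DR500, beside 2.47% and 3.09% of all genes, and 2 rose and 0 fell in MR20, beside 1.41% and 1.08%. Between the selected lines, 18 were higher and 8 lower in DR500 than in MR20, where 21.2% of all genes were higher and 20.6% lower (41.9% together), and 7 and 5 of them differed by more than 2-fold, beside 2.87% and 3.23%. Over all genes called in DR500 against 4T1, 48.8% rose, a share that became 61.8% with a repeated quantile normalization and 62% with each array centred on its median, and the count of these genes that rose and fell then became 22 and 5, and 22 and 4. The share called higher in DR500 than in MR20 was likewise 50.7%, 60.4% and 56.3%, with 18 and 8, 22 and 6, and 18 and 8 of these genes.

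**Figure D1:**
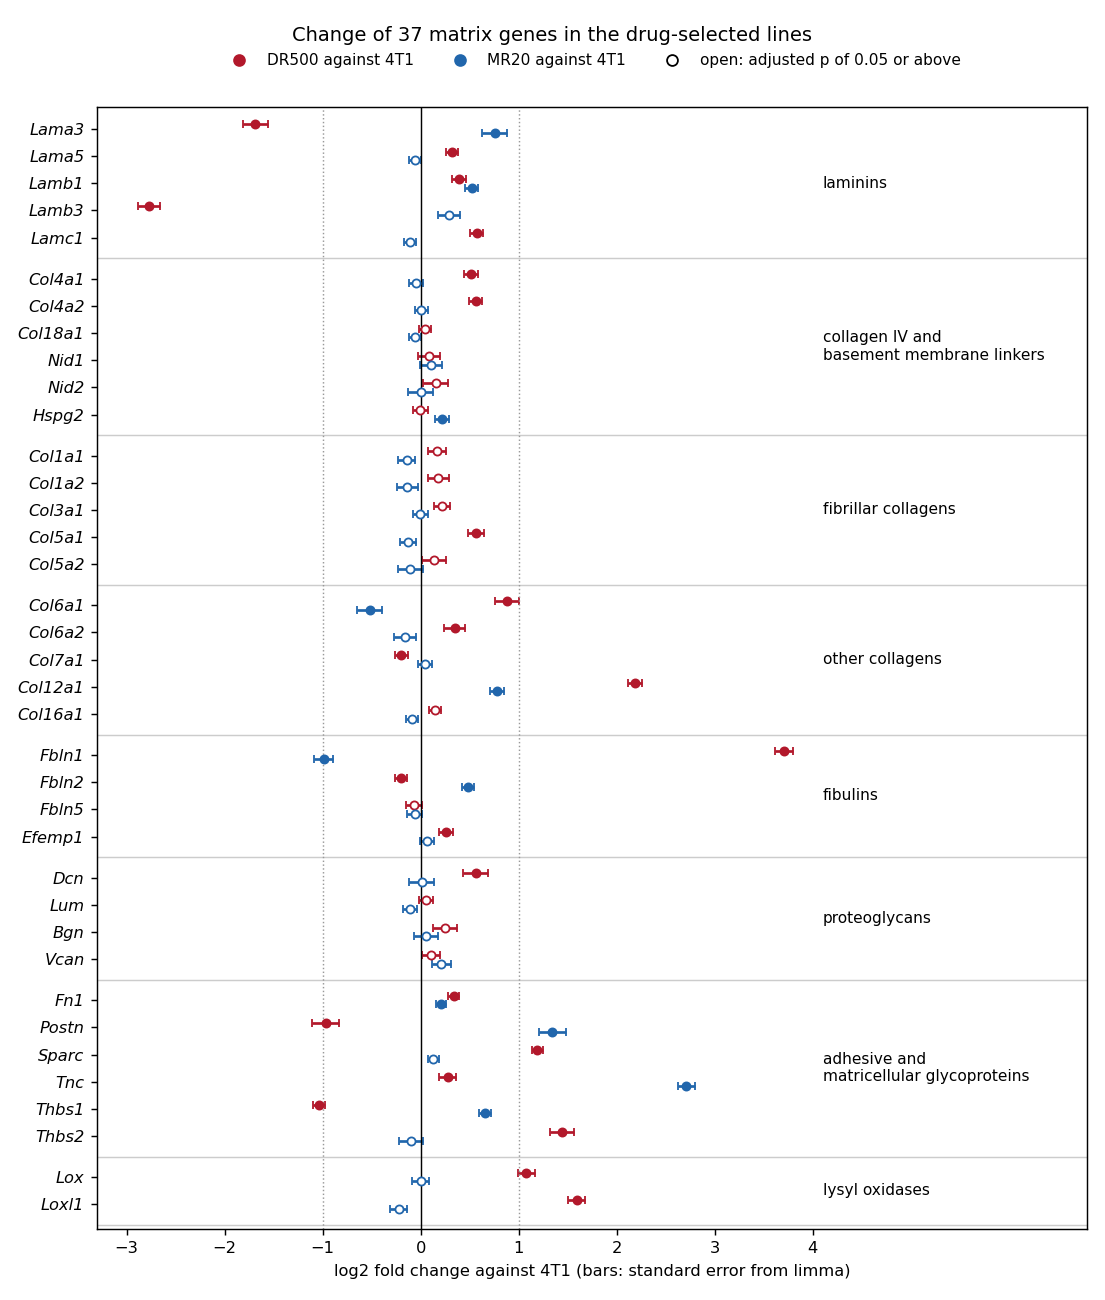
Log2 fold change of the 37 matrix genes in DR500 (red) and in MR20 (blue) against 4T1, grouped by role on the vertical axis. Points are limma estimates with standard errors from 3 arrays per line, open points did not pass, and dotted lines mark 2-fold. Fbln1 is the farthest right in DR500 at 3.70 and Lamb3 the farthest left at -2.77, and Tnc is the farthest right in MR20 at 2.71.

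The laminin chains parted in DR500. Lama3 and Lamb3 encode the alpha and beta chains of the laminin that anchors epithelial cells to the basement membrane through hemidesmosomes. Lamb3 had log2 values of 6.63, 6.15 and 6.18 on the DR500 arrays, 9.44, 9.34 and 9.36 on the MR20 arrays, and 9.08, 9.06 and 9.13 on the 4T1 arrays. The DR500 arrays all lay far below those of both other lines. Its log2 fold change in DR500 against 4T1 was -2.77 ± 0.11 (SE, n = 3 per line), a fall of 6.81-fold, with an adjusted p of 2.52e-08 in limma, and against MR20 it was -3.06 (adjusted p = 9.75e-09, limma). Lama3 had values of 6.52, 6.01 and 6.26 in DR500, 8.83, 8.63 and 8.65 in MR20, and 7.95, 8.10 and 7.80 in 4T1. The lines did not overlap, with MR20 highest and DR500 lowest. Lama3 fell by 1.69 ± 0.12 in DR500 (adjusted p = 2.03e-06, limma) and rose by 0.75 ± 0.12 in MR20 (adjusted p = 9.07e-04, limma). Lamb3 did not pass in MR20, with a log2 fold change of 0.29 and an adjusted p of 0.078, although its MR20 arrays all lay above the 4T1 arrays. It passed there without DR500 replicate 1 (adjusted p = 0.00173) and in a fit of only the lines compared (adjusted p = 0.00307). Passes also came with a repeated quantile normalization (adjusted p = 0.031), centring (0.0216), dim genes filtered out (0.0358) and a variance trend (0.0422). On the DR500 arrays both genes lay close to the array's median of 6.24 to 6.36.

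The chains of the more widely expressed laminins moved otherwise. Lamc1, the common gamma chain, rose by 0.57 ± 0.07 in DR500 (adjusted p = 4.49e-05, limma) and had -0.11 in MR20, which did not pass. Lama5, the alpha chain of the laminin found under most adult epithelia, rose by 0.32 ± 0.06 in DR500 (adjusted p = 0.00215) and had -0.06 in MR20. Lamb1, the beta chain that pairs with it, rose in both lines, by 0.39 ± 0.07 in DR500 and by 0.52 ± 0.07 in MR20, and its difference between DR500 and MR20 was -0.13 with a 95% interval of -0.28 to 0.02. Each of these 3 changes was below 2-fold.

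Both chains of collagen IV, the network former of the basement membrane, rose in DR500 by similar amounts. Col4a1 had values of 8.84, 8.60 and 8.75 in DR500, 8.19, 8.20 and 8.14 in MR20, and 8.23, 8.29 and 8.15 in 4T1, and Col4a2 had 8.59, 8.47 and 8.61 in DR500, 8.03, 7.95 and 8.03 in MR20, and 8.07, 7.99 and 7.92 in 4T1. The DR500 arrays of both genes lay above all others. The log2 fold change in DR500 against 4T1 was 0.51 ± 0.07 for Col4a1 (adjusted p = 1.81e-04, limma) and 0.56 ± 0.06 for Col4a2 (adjusted p = 4.73e-05, limma), and neither passed in MR20, with -0.05 and 0.01. The linkers changed little. Nid1 and Nid2, the nidogens, and Col18a1, whose end fragment is endostatin, did not pass in any comparison, with log2 fold changes between -0.06 and 0.15 against 4T1, although Col18a1 was higher in DR500 than in MR20 with a repeated quantile normalization (0.19, adjusted p = 0.0433). Hspg2, which encodes perlecan, did not pass in DR500 (adjusted p = 0.985) and rose by 0.21 in MR20 (adjusted p = 0.044, limma). That call was lost, with adjusted p of 0.0602 to 0.158, when any of 4T1 replicate 2, 4T1 replicate 3, MR20 replicate 1, MR20 replicate 2 or DR500 replicate 2 was left out. Hspg2 was also lower in DR500 than in MR20, at -0.22 (adjusted p = 0.0342, limma). This second call was lost with a repeated quantile normalization, with only the lines compared and when any of 5 arrays was left out (adjusted p of 0.0514 to 0.126).

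**Figure D2:**
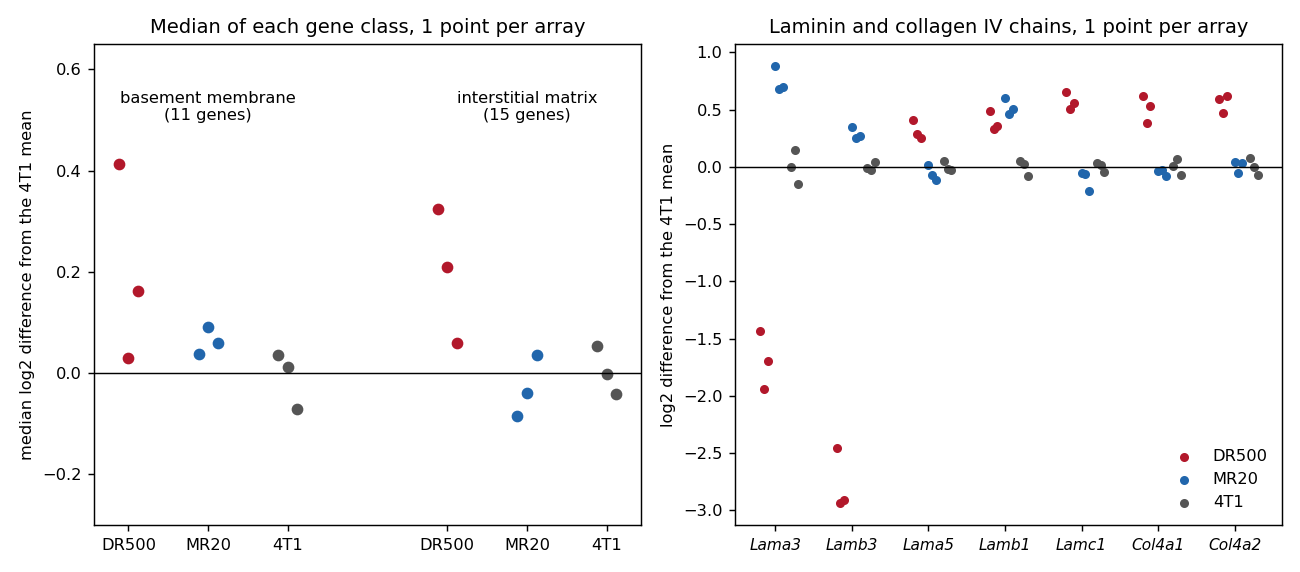
Left, the median over 11 basement membrane genes and over 15 interstitial genes of each array's log2 difference from the 4T1 mean, with 1 point per array. Right, the same difference for 5 laminin chains and 2 collagen IV chains, in which Lama3 and Lamb3 lie far below 0 on all DR500 arrays, and Lamc1, Col4a1 and Col4a2 lie above 0 on them.

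Fibrillar collagens, the main fibres of the interstitial matrix, changed little. In MR20 0 of the 5 passed in limma, beside 32.5% of all genes, and 0 had an unadjusted p under 0.05. In DR500 Col5a1, a minor chain that helps start fibres, rose by 0.56 ± 0.08 (adjusted p = 2.57e-04, limma). Col1a1 and Col1a2, the chains of type I collagen, Col3a1, of type III, and Col5a2 had 0.17, 0.18, 0.22 and 0.14 and did not pass. Their 95% intervals against 4T1 ran from -0.04 to 0.37 for Col1a1, from -0.06 to 0.42 for Col1a2, from 0.04 to 0.39 for Col3a1 and from -0.14 to 0.41 for Col5a2. With a repeated quantile normalization Col1a1, Col1a2 and Col3a1 passed as higher in DR500, at 0.28, 0.28 and 0.31. Col3a1 also passed without MR20 replicate 3 or DR500 replicate 3 (adjusted p of 0.0248 to 0.0457), and Col1a1 without DR500 replicate 3 (adjusted p = 0.0467). Against MR20, Col1a1, Col1a2 and Col3a1 were higher in DR500 by 0.31, 0.32 and 0.22, with adjusted p of 0.019, 0.0351 and 0.0492, and each call was lost, with adjusted p of up to 0.157, without replicate 1 or replicate 2 of DR500 or of MR20. The calls of Col1a2 and Col3a1 were also lost without 4T1 replicate 1, and that of Col3a1 without 4T1 replicate 2 or 4T1 replicate 3. Col5a1 was higher in DR500 than in MR20 by 0.69 (adjusted p = 6.31e-05, limma), which was kept in every alternative.

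Other collagens held larger changes. Col12a1 encodes a collagen that sits on the surface of type I fibres. It had values of 9.19, 9.07 and 9.14 in DR500, 7.80, 7.65 and 7.73 in MR20, and 7.05, 6.83 and 6.97 in 4T1. The lines did not overlap, and both selected lines were above 4T1. It rose by 2.18 ± 0.07 in DR500, 4.54-fold (adjusted p = 6.03e-09, limma), and by 0.78 ± 0.07 in MR20 (adjusted p = 2.15e-05, limma). The difference of 1.40 between DR500 and MR20 passed as well (adjusted p = 1.18e-07, limma).

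Col6a1 encodes a chain of the beaded collagen VI around cells. It had 8.87, 9.02 and 8.84 in DR500, 7.20, 7.55 and 7.77 in MR20, and 8.08, 8.08 and 7.92 in 4T1. The DR500 arrays were highest, the MR20 arrays lowest, and the lines did not overlap. Col6a1 rose by 0.88 ± 0.13 in DR500 (adjusted p = 2.13e-04, limma) and fell by 0.52 ± 0.13 in MR20 (adjusted p = 0.00881, limma). Its neighbour Col6a2, the partner chain, had 0.34 ± 0.11 in DR500 (adjusted p = 0.03), a call that was lost, with adjusted p of 0.0506 to 0.112, without 4T1 replicate 2, 4T1 replicate 3, DR500 replicate 1 or DR500 replicate 2, and it had -0.16 in MR20, which did not pass. Against MR20, Col6a2 was higher in DR500 by 0.50 (adjusted p = 0.00416, limma). Col7a1, the anchoring fibril collagen of skin, had -0.20 in DR500 (adjusted p = 0.0479). That call was lost when any of 7 arrays was left out, all but MR20 replicate 3 and DR500 replicate 1 (adjusted p of 0.0517 to 0.137). It was also lost with a repeated quantile normalization (-0.07), centring, only the lines compared, a variance trend and a replicate block. Against MR20, Col7a1 had -0.24 in DR500 (adjusted p = 0.019, limma). This was lost with a repeated quantile normalization and without MR20 replicate 3 or DR500 replicate 3. Col16a1, a minor collagen that connects fibrils, had 0.14 in DR500 and did not pass (adjusted p = 0.0927). It passed with a repeated quantile normalization (0.26, adjusted p = 0.00521), with each array centred on its median and without DR500 replicate 3 (adjusted p = 0.0178). It also passed with dim genes filtered out, a filter that kept it through DR500 arrays alone. It was higher in DR500 than in MR20 by 0.24 (adjusted p = 0.0112, limma).

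Fibulins are calcium-binding glycoproteins that bridge elastic fibres and basement membranes, and Fbln1 had the largest change of all 37 genes. Its values were 11.49, 11.71 and 11.72 in DR500, 6.75, 7.04 and 7.04 in MR20, and 7.92, 8.00 and 7.89 in 4T1. Every DR500 array lay more than 3 log2 units above every 4T1 array, and every MR20 array lay below every 4T1 array. Fbln1 rose by 3.70 ± 0.10 in DR500, 13.0-fold (adjusted p = 1.01e-09, limma), and fell by 0.99 ± 0.10 in MR20 (adjusted p = 2.78e-05, limma), so that DR500 exceeded MR20 25.9-fold. Fbln2 moved the other way, with a rise of 0.49 ± 0.06 in MR20 (adjusted p = 1.48e-04) and a fall of 0.20 ± 0.06 in DR500 (adjusted p = 0.0203) that was lost without 4T1 replicate 1 (adjusted p = 0.0811) and with each array centred on its median. Efemp1, or fibulin 3, which lay below the median of the array throughout, had 0.26 in DR500 (adjusted p = 0.0146), lost without 4T1 replicate 1 (adjusted p = 0.0609). Fbln5, needed for elastic fibres, had -0.07 in DR500 and -0.06 in MR20, and neither passed.

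Of the 4 proteoglycans, 1 passed in DR500 and 0 in MR20 against 4T1, beside 41.5% and 32.5% of all genes. Dcn, Lum and Bgn encode the small proteoglycans decorin, lumican and biglycan, and Vcan encodes versican, a large one. All 4 lay below the median of the array on all 9 arrays. Dcn rose by 0.56 ± 0.12 in DR500 (adjusted p = 0.00413, limma), with values of 5.44, 5.92 and 5.85 in DR500, 5.09, 5.16 and 5.30 in MR20, and 5.03, 5.28 and 5.23 in 4T1. The DR500 arrays lay above the others. In DR500 Lum, Bgn and Vcan had 0.06, 0.25 and 0.10 and did not pass, except Bgn without DR500 replicate 3 (0.34, adjusted p = 0.0491) and with each array centred on its median. In MR20 0 of the 4 passed in limma, and 0 had an unadjusted p under 0.05, although the arrays of Vcan did not overlap (0.21, adjusted p = 0.13).

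Of the 6 adhesive and matricellular genes, 4 rose and 2 fell in DR500, beside 20.2% and 21.3% of all genes. In MR20 4 rose and 0 fell, beside 15.4% and 17.1% of all genes. Tnc encodes tenascin C, a large protein of wound beds and tumour stroma. Its values were 6.65, 6.66 and 6.84 in DR500, 9.32, 9.11 and 9.02 in MR20, and 6.48, 6.36 and 6.48 in 4T1. The MR20 arrays stood far above the other 6. It rose by 2.71 ± 0.09 in MR20, 6.54-fold (adjusted p = 1.12e-08, limma), and by 0.28 ± 0.09 in DR500 (adjusted p = 0.0262), which was lost without 4T1 replicate 2 or DR500 replicate 3 (adjusted p of 0.0801 to 0.0968).

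Postn encodes periostin, which binds integrins and collagen. It had 4.78, 4.34 and 4.53 in DR500, 7.12, 6.86 and 6.60 in MR20, and 5.48, 5.52 and 5.56 in 4T1. MR20 lay above 4T1 and DR500 below it, without overlap, and all 4T1 and DR500 values lay below the median of the array. Postn rose by 1.34 ± 0.14 in MR20 (adjusted p = 3.84e-05, limma) and fell by 0.97 ± 0.14 in DR500 (adjusted p = 1.88e-04, limma).

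Thbs1 encodes thrombospondin 1, an inhibitor of angiogenesis that can activate latent TGF-beta. It had 11.20, 11.26 and 11.17 in DR500, 12.96, 12.86 and 12.90 in MR20, and 12.31, 12.18 and 12.25 in 4T1. The 3 lines were fully apart in the order MR20, 4T1 and DR500. It rose by 0.66 ± 0.06 in MR20 (adjusted p = 1.71e-05, limma) and fell by 1.04 ± 0.06 in DR500 (adjusted p = 3.02e-07, limma). Thbs2, its relative, had 7.19, 6.90 and 7.23 in DR500, 5.41, 5.44 and 5.84 in MR20, and 5.73, 5.65 and 5.61 in 4T1. DR500 lay above both other lines, whose arrays overlapped. Thbs2 rose by 1.44 ± 0.12 in DR500 (adjusted p = 5.25e-06, limma) and had -0.10 in MR20, which did not pass.

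Sparc encodes osteonectin, a collagen-binding protein. Its values were 13.16, 13.01 and 13.12 in DR500, 12.06, 12.00 and 12.06 in MR20, and 11.93, 11.91 and 11.89 in 4T1. It rose by 1.19 ± 0.06 in DR500 (adjusted p = 8.65e-08, limma) and had 0.13 ± 0.06 in MR20, which did not pass (adjusted p = 0.126) although the arrays did not overlap. Sparc passed in MR20 with a variance trend (adjusted p = 0.019) and with dim genes filtered out (adjusted p = 0.0419). Fn1, or fibronectin, rose by 0.34 ± 0.05 in DR500 (adjusted p = 5.23e-04, limma) and by 0.21 ± 0.05 in MR20 (adjusted p = 0.0135, limma). The MR20 call of Fn1 was lost without 4T1 replicate 2, 4T1 replicate 3 or MR20 replicate 1, with adjusted p of 0.0508 to 0.0566.

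The lysyl oxidases Lox and Loxl1, which cross-link collagen and elastin, rose in DR500. Loxl1 had 7.80, 7.99 and 8.01 in DR500, 5.96, 6.17 and 6.23 in MR20, and 6.39, 6.27 and 6.36 in 4T1. Lox had 5.56, 5.53 and 5.53 in DR500, 4.46, 4.39 and 4.54 in MR20, and 4.32, 4.39 and 4.67 in 4T1. DR500 lay above all other arrays for both genes, although Lox stayed below the median of every array. In DR500 Loxl1 rose by 1.59 ± 0.09 (adjusted p = 1.99e-07, limma) and Lox by 1.08 ± 0.09 (adjusted p = 3.63e-06, limma). In MR20 Loxl1 had -0.22 (adjusted p = 0.0747) and Lox 0.00. Loxl1 passed as lower in MR20 without MR20 replicate 3 or DR500 replicate 1, with adjusted p of 0.0454 to 0.05. It also passed with dim genes filtered out (adjusted p = 0.0309), a filter that kept it through DR500 arrays alone.

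**Figure D3:**
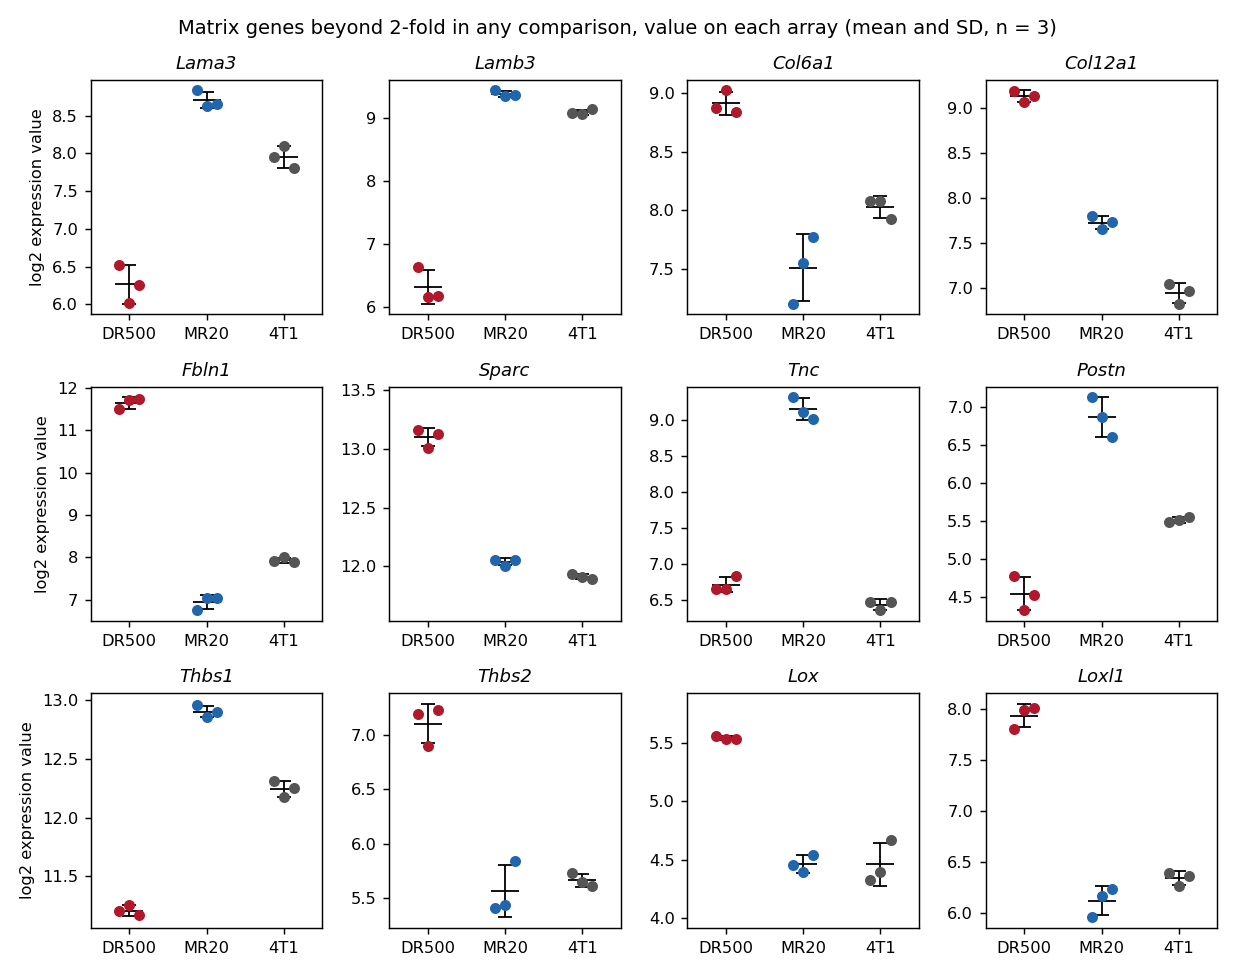
Log2 expression value on each array (vertical axes, a scale for each gene) of the 12 matrix genes beyond 2-fold in any comparison, with DR500, MR20 and 4T1 from left to right and the mean and SD of 3 arrays as bars. Tnc is higher on the MR20 arrays than on all others. Fbln1, Sparc, Thbs2, Lox and Loxl1 are higher on the DR500 arrays than on all others, and Lamb3 is lower on them.

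In DR500 the medians of both classes lay above that of all genes, and in MR20 they lay within 0.1 of it. In DR500 against 4T1, 5 of 11 basement membrane genes rose and 2 fell, with a median log2 fold change of 0.15, and 6 of 15 interstitial genes rose and 1 fell, with a median of 0.22, beside a median of 0.07 over all genes tested. Of the basement membrane genes 63.6% passed and of the interstitial genes 46.7%, beside 41.5% of all genes. With the 14 dim genes filtered out, these medians were 0.32 and 0.34. A median over all genes under that filter is not given. The filter kept a gene by its highest value on any array, and Col1a1, Col6a2 and Col16a1 passed it through DR500 arrays alone. The filtered interstitial medians are therefore not independent of the DR500 values. The mean difference from 4T1 over the 11 basement membrane genes was -0.02, -0.28 and -0.20 on the 3 DR500 arrays, with Lama3 and Lamb3 included, and it was 0.44, 0.34 and 0.25 over the interstitial genes. The basement membrane median was 0.01 without DR500 replicate 1, the array with the highest medians in both classes. In MR20 against 4T1, 3 of 11 basement membrane genes rose and 0 fell, with a median of 0.01, and 3 of 15 interstitial genes rose and 1 fell, with a median of -0.09, beside -0.01 over all genes. There 27.3% and 26.7% passed, below the 32.5% of all genes. Between DR500 and MR20, 4 basement membrane genes were higher in DR500 and 3 lower, and 9 interstitial genes were higher and 1, Postn, was lower, with medians of 0.11 and 0.24 beside 0.07 over all genes, and 63.6% and 66.7% passed beside 41.9%. The interstitial median was 0.50 with dim genes filtered out and 0.38 without DR500 replicate 3. The difference between the classes was not tested.

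Genes outside the 37 were counted from lists of related function, to be read beside the 20.2% of all genes that rose and 21.3% that fell in DR500, and the 15.4% and 17.1% in MR20. Of 22 other basement membrane genes, 6 rose and 2 fell in DR500, among them Tinagl1 with 0.70 and Agrn, which encodes agrin, with -0.70, and 2 rose and 1 fell in MR20, where Lama4 rose by 0.89. In all, 36.4% of them passed in DR500 and 13.6% in MR20, fewer than the 41.5% and 32.5% of all genes. Hemidesmosomes are the junctions that dock on the laminin that holds the Lama3 and Lamb3 chains. Of 6 hemidesmosome genes, 3 rose and 0 fell in DR500 (Cd151 by 0.75, Plec by 0.57 and Itga6 by 0.40). In MR20, 4 of them rose and 1 fell, with Plec up by 0.85. Of 30 other interstitial and elastic matrix genes, 7 rose and 2 fell in DR500 and 2 rose and 5 fell in MR20, so that 30% and 23.3% passed, again below the shares of all genes. Ecm1, a secreted matrix glycoprotein, rose by 2.49 in DR500 and by 1.24 in MR20, Emilin2 rose by 1.36 and Col8a1 fell by 1.34 in DR500. Of 12 non-integrin matrix receptors, 7 rose and 0 fell in DR500, where the syndecan Sdc3 rose by 2.68 and the laminin receptor Bcam by 1.16, and 3 rose and 3 fell in MR20, where Sdc3 fell by 0.76.

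Of 25 enzymes and chaperones that modify, fold and process collagen, 13 (52%) rose and 2 fell in DR500, where 20.2% of all genes rose and 21.3% fell, with a median log2 fold change of 0.45, and 4 rose and 8 fell in MR20, where 15.4% and 17.1% of all genes did, with a median of -0.12. The medians over all genes were 0.07 in DR500 and -0.01 in MR20. P3h2, a prolyl 3-hydroxylase, had 10.85, 10.72 and 10.94 in DR500, 9.05, 9.01 and 9.11 in MR20, and 8.09, 7.92 and 7.91 in 4T1, and rose by 2.86 in DR500 and by 1.08 in MR20. The lysyl hydroxylase Plod1 rose by 2.01, the peptidyl-prolyl isomerase Fkbp14 by 1.86 and the prolyl 4-hydroxylase subunit P4ha2 by 1.72 in DR500, and P4ha2 rose by 1.17 in MR20. Loxl4, another lysyl oxidase, fell in both lines, by 1.59 in DR500 and by 1.70 in MR20. Pcolce, which enhances the cleavage of procollagen, was higher in DR500 than in MR20 by 1.62, with a rise of 0.75 in DR500 and a fall of 0.87 in MR20 against 4T1. Between DR500 and MR20, 16 of the 25 were higher and 1 lower in DR500, with a median of 0.54. Of all genes, 21.2% were higher and 20.6% lower in DR500 than in MR20. Of the 5 fibrillar collagens 1 had risen in DR500 against 4T1 and 4 were higher in DR500 than in MR20, and the difference between these lists was not tested.

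**Figure D4:**
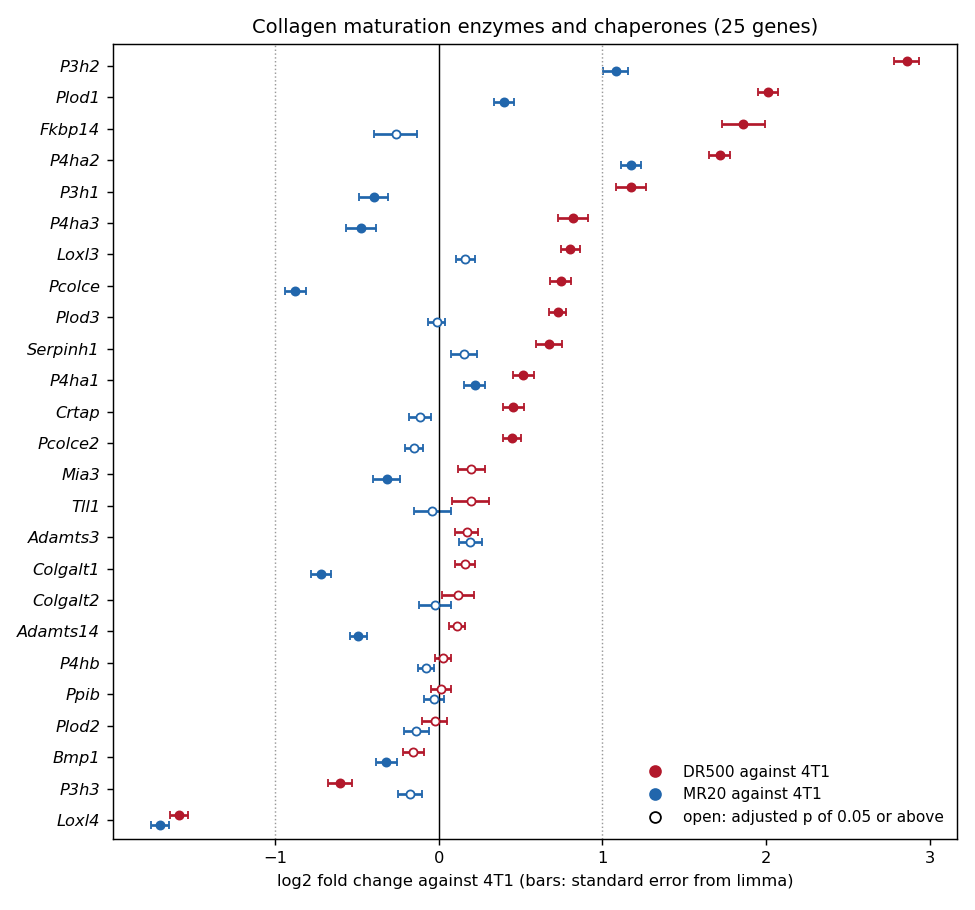
Log2 fold change of 25 collagen maturation enzymes and chaperones in DR500 (red) and MR20 (blue) against 4T1, ordered by DR500, with standard errors from limma and open points for genes that did not pass. P3h2, Plod1, Fkbp14 and P4ha2 lie at the right in DR500, at 2.86 to 1.72, and Loxl4 lies at the left in both lines.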

How the data were processed

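Gene expression in 3 lines was read on 9 mouse whole-transcript arrays of Affymetrix with 1 colour. The deposited values are log2 expression values that the authors made by robust multi-array normalization with affy, which corrects background, normalizes quantiles and summarises probes. Versions, and whether all arrays were normalized together, are not given in the sources used here. Array number limits the precision, and no counts or depths apply. Of 35556 probe sets, 21789 had 1 gene symbol. The platform annotation named them, updated by Entrez identifier for 21698. Where several probe sets named a gene (999 genes), the brightest on average stood for it, which gave 19938 genes.

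limma 3.58.1 in R 4.3.3 fitted all 9 arrays with a mean per line and 6 residual degrees of freedom, and p-values were adjusted by Benjamini-Hochberg over all genes. Fold changes are differences of means, DR500 or MR20 minus 4T1, and DR500 minus MR20. An exact permutation test of 3 against 3 arrays cannot go below 0.1. The fit was tested on simulated data. The members and gene lists were chosen with earlier results of these data known. Genes beyond 2-fold in any comparison have their value on every array, and of the other lists the 4 largest changes per comparison could be named. P3h2's array values were added after they were seen. Alternatives were a repeated quantile normalization, centring, a filter on dim genes and a fit of only the lines compared. Others were the mean over a gene's probe sets, a variance trend, a replicate block, Col7a1 counted with the basement membrane and leaving out each array. The filter kept genes whose highest value over the 9 arrays was above the median of that value over all genes.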

Additional observations from a re-analysis of the deposited data

Results flagged for a closer look

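In 6 of the 37 genes the change against 4T1 passed in both selected lines with opposite signs and the difference between the lines passed as well. By the same criterion 6.2% of all genes tested did so. The log2 difference of DR500 minus MR20 was 4.70 for Fbln1 (3.70 in DR500 and -0.99 in MR20 against 4T1) and 1.40 for Col6a1 (0.88 and -0.52). It was -2.44 for Lama3 (-1.69 in DR500 and 0.75 in MR20), -2.31 for Postn (-0.97 and 1.34), -1.70 for Thbs1 (-1.04 and 0.66) and -0.69 for Fbln2 (-0.20 and 0.49). The DR500 call of Fbln2 against 4T1 was lost without 4T1 replicate 1 and with each array centred on its median, and Fbln2 then did not meet the criterion. The adjusted p of the difference in limma lay between 1.7e-10 and 7.48e-06. Both changes share the 4T1 arrays, so an error in the 4T1 mean moves them together.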

How the results depend on the processing

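The 12 genes beyond 2-fold kept their direction and an adjusted p under 0.05, in each comparison where they passed 2-fold, in every alternative that tested them. The filter on dim genes removed Postn, Thbs2 and Lox, and kept Tnc through MR20 arrays alone and Loxl1 through DR500 arrays alone. For Tnc and Loxl1 it is therefore no independent check. Of all calls, 19 of 24 in DR500 against 4T1, 9 of 11 in MR20 against 4T1 and 21 of 26 in DR500 against MR20 were kept in all alternatives that tested the gene. The mean over a gene's probe sets could not change these genes, which have 1 probe set each. The filter on dim genes removed 14 of the 37 in all. In MR20 against 4T1, 1 gene then was beyond 2-fold, Tnc, which the filter kept through MR20 arrays alone. Col1a1, Col6a2, Col16a1 and Loxl1 passed this filter through DR500 arrays alone. Its counts of genes passing, and its interstitial medians, which hold all of these but Loxl1, are not independent of the DR500 values. The filtered median log2 fold change in DR500 against 4T1 was 0.32 for basement membrane and 0.34 for interstitial genes. It was 0.50 for interstitial genes in DR500 against MR20. Leaving out single arrays, these medians ranged from 0.01 to 0.25, from 0.14 to 0.27 and from 0.19 to 0.38. The highest of the last range came without DR500 replicate 3. The numbers of genes passing ranged from 21 to 26 in DR500 against 4T1, from 9 to 13 in MR20 against 4T1 and from 22 to 25 in DR500 against MR20 without single arrays. Deviations from the line means correlated between -0.309 and 0.327 for arrays of the same replicate number. Arrays of different numbers were not compared, so this cannot decide whether replicate numbers pair the arrays. With a replicate block 22, 12 and 24 genes passed in DR500 against 4T1, MR20 against 4T1 and DR500 against MR20. Among them was Vcan in MR20 against 4T1 (0.21, adjusted p = 0.025), which did not pass without the block. Counted with Col7a1, the basement membrane median in DR500 against 4T1 was 0.12. Low signal limits the 8 genes below the median of every array.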
